A study of Homo sapiens with 24 samples.

Results

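The 10 genes described here are the Fos family genes FOS, FOSB, FOSL1 and FOSL2, the Jun family genes JUN, JUNB and JUND, and the immediate early genes EGR1, IER2 and IER3. They were chosen by name, and all 10 were found among the 33113 genes of the count table used here. RNA was sequenced from HCT116, a human colorectal carcinoma cell line, and from HCT116 oxpl-R, an oxaliplatin-resistant derivative obtained by repeated pulses of a high oxaliplatin concentration. Each line was measured in 4 conditions, with 3 samples per group and 24 samples altogether. The cells of all 8 groups, controls included, carried a Tet-On transgene for the adenovirus E1A protein. The groups were HCT116 control, HCT116 E1A, HCT116 oxaliplatin and HCT116 E1A + oxaliplatin, and the same 4 conditions of HCT116 oxpl-R, whose untreated group is called HCT116 oxpl-R. E1A was switched on with 0.5 µg/mL doxycycline, which was given 3 h ahead of the drug in the combined groups. Oxaliplatin, a platinum compound that crosslinks DNA, was given at 25 µM for 24 h. No group of cells lacking the transgene received doxycycline, so an effect of doxycycline itself and one of E1A cannot be told apart. HCT116 oxpl-R is a single derived line, so a difference between the lines is a difference between these 2 cell populations.

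AP-1 is a transcription factor made of pairs of basic leucine zipper proteins, in which a Jun protein binds another Jun protein or a Fos protein. Immediate early genes are transcribed within minutes of a growth factor, stress or damage signal, without new protein synthesis, because their activators (serum response factor with ternary complex factors, and CREB or ATF proteins) are already present and are switched on by MAP kinases. FOS, FOSB, EGR1 and IER2 belong to this fast class, whereas FOSL1 and FOSL2 tend to rise later and to persist while ERK is active, and JUND is expressed in most growing and resting cells. E1A binds the coactivators CBP and p300 and the retinoblastoma protein family, and it is known both to repress and to induce AP-1 genes in different settings.

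The promoters of 3 genes are shown because JUNB, EGR1 and FOSB had the 3 largest increases with E1A in HCT116. They come from RefSeq on GRCh38.p14, where 8 of the 10 genes had an entry (FOSL1 and IER3 did not), and each is the 250 bases before the annotated start. Capitals mark the CArG box (the site of serum response factor, searched by its consensus on both strands), TATAAA (on the gene's strand) and CCAAT (on both strands). The EGR1 window is chr5:138465229-138465478 on the + strand, the JUNB window chr19:12791236-12791485 on the + strand and the FOSB window chr19:45467746-45467995 on the + strand.
EGR1: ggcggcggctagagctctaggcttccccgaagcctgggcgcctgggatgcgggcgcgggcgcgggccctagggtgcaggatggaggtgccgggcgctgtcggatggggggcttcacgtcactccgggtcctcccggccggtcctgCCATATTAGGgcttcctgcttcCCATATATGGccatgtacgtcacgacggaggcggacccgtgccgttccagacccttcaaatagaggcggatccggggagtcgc
JUNB: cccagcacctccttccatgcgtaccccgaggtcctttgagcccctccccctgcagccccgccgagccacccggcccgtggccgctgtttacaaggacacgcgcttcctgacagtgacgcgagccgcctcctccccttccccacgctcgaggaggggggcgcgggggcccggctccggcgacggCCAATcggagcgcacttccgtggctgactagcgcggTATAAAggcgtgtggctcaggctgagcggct
FOSB: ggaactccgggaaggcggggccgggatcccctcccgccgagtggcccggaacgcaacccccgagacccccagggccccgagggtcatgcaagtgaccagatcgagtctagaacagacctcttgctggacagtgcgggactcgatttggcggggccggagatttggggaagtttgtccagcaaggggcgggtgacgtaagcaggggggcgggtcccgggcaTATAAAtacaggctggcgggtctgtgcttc

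The EGR1 window held 2 CArG boxes, at −105 to −96 and −83 to −74 counted from the start, and it was the 1 window of the 8 with any. Of 35116 RefSeq promoters of the same length, 1.16% held a CArG box. TATAAA stood in the windows of FOS, FOSB and JUNB, at −30 to −25 in FOSB and −31 to −26 in JUNB, and in 6.80% of all promoters. CCAAT stood in those of JUN, JUNB and JUND, and in 32% of all promoters. The AP-1 site TGANTCA was in 0 of the 8 windows and in 6.57% of all promoters, and the CRE TGACGTCA was in the JUND window and in 1.65% of all. The search counts only these exact patterns within 250 bases, so variant sites and sites further upstream are missed. The JUN window, for example, holds TGACATCA, which neither TGANTCA nor TGACGTCA matches. The search describes letters in these windows and does not show which sites are bound.

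Positions given here span the whole gene, and exons are those of its canonical transcript. On GRCh38, with GENCODE gene models, FOS lies at chr14:75278826-75282230 (+ strand, 4 exons), FOSB at chr19:45467995-45475179 (+, 4 exons), FOSL1 at chr11:65892049-65900573 (−, 4 exons) and FOSL2 at chr2:28392448-28417317 (+, 4 exons). JUN at chr1:58776845-58784048 (−), JUNB at chr19:12791486-12793315 (+) and JUND at chr19:18279694-18281622 (−) each have 1 exon. EGR1 lies at chr5:138465479-138469303 (+), IER2 at chr19:13150411-13154911 (+) and IER3 at chr6:30743199-30744548 (−), with 2 exons each. Exons of JUNB, IER2 and IER3 overlap exons of genes on the opposite strand (HOOK2 for JUNB, ENSG00000267598 for IER2, HCG20 and IER3-AS1 for IER3). Whether counting used the strand is not given in the sources used here, so reads in those overlaps cannot be assigned with certainty.

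The libraries held 24838095 to 37927720 counts, with a median of 29382753, and the lowest count of any of the 10 genes in any sample was 52. Levels are given as normalized counts, which are counts scaled to a common effective library size. The E1A transgene had 119 to 343 normalized counts in the 12 libraries without doxycycline and 5826 to 24304 in the 12 with it, so the doxycycline labels matched the transgene in every library. Of the colorectal epithelial markers, EPCAM, CDH1, KRT8, KRT18, KRT19 and CDX2 had at least 726 counts in every library, while CDX1, LGALS4, CDH17 and KRT20 had at most 49. The summed level of that list was 5300.3 to 17608 CPM (counts scaled to the library total). For 10 markers of immune, endothelial, stromal and blood cells it was 21.6 to 121 CPM. Of these 10 markers, PTPRC, CD3E and DCN had a median count of 0. Others were detected, with 339 to 1512 counts for COL1A1, 40 to 2647 for ACTA2 and 10 to 181 for CD68. ACTA2 was higher with oxaliplatin and in HCT116 oxpl-R in every such comparison (edgeR, adjusted p below 0.05). In 10 of 24 libraries the most similar library belonged to another group. HCT116 oxaliplatin replicate 3 and HCT116 E1A + oxaliplatin replicate 1 resembled each other (r = 0.974 over 9501 genes with a mean of at least 50 normalized counts) more than any library of their own groups (highest r = 0.946 and 0.951), and calls of the 10 genes that changed without both are given with and without them. In bulk RNA, more cells expressing a gene and more RNA per cell cannot be told apart.

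Compared per kilobase of transcript over all 24 samples, IER3 and JUNB had the highest mean levels, with 8655 and 8256 normalized counts per kb. JUNB did not hold this place in the untreated groups or in HCT116 oxpl-R oxaliplatin. In HCT116 control it had 2964 per kb, below IER2 (3718) and JUND (3314), and in untreated HCT116 oxpl-R 1865 per kb, below FOSL1 (4386), JUND (3552) and IER2 (2619). In HCT116 oxaliplatin it had 6414 per kb, above IER2 (5795) and JUND (5430). In HCT116 oxpl-R oxaliplatin it had 2931 per kb, below IER2 (3707). Over all 24 samples, IER2 had 5651, JUND 3712, FOSL1 2833 and EGR1 1460.3 normalized counts per kb. The other Fos and Jun transcripts were far scarcer, with 360.5 for JUN, 292 for FOSL2, 145 for FOS and 51.3 for FOSB. FOSL1 had the highest level of the Fos family on this scale in all 8 groups. Of the Jun family, JUND was highest in both untreated groups and JUNB in the groups with E1A, oxaliplatin or both. In HCT116 oxpl-R oxaliplatin the 2 were close, with 2931 per kb for JUNB and 2811 for JUND. The genes also differed in how much they varied, measured as the highest over the lowest of the 8 group means. This ratio was 14.3 for EGR1, 9.48 for JUNB, 5.26 for FOSB and 3.93 for IER2, while it was 3.20 for JUN, 2.84 for both FOS and IER3, 2.49 for FOSL2, 2.10 for FOSL1 and 1.93 for JUND.

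**Figure D1:**
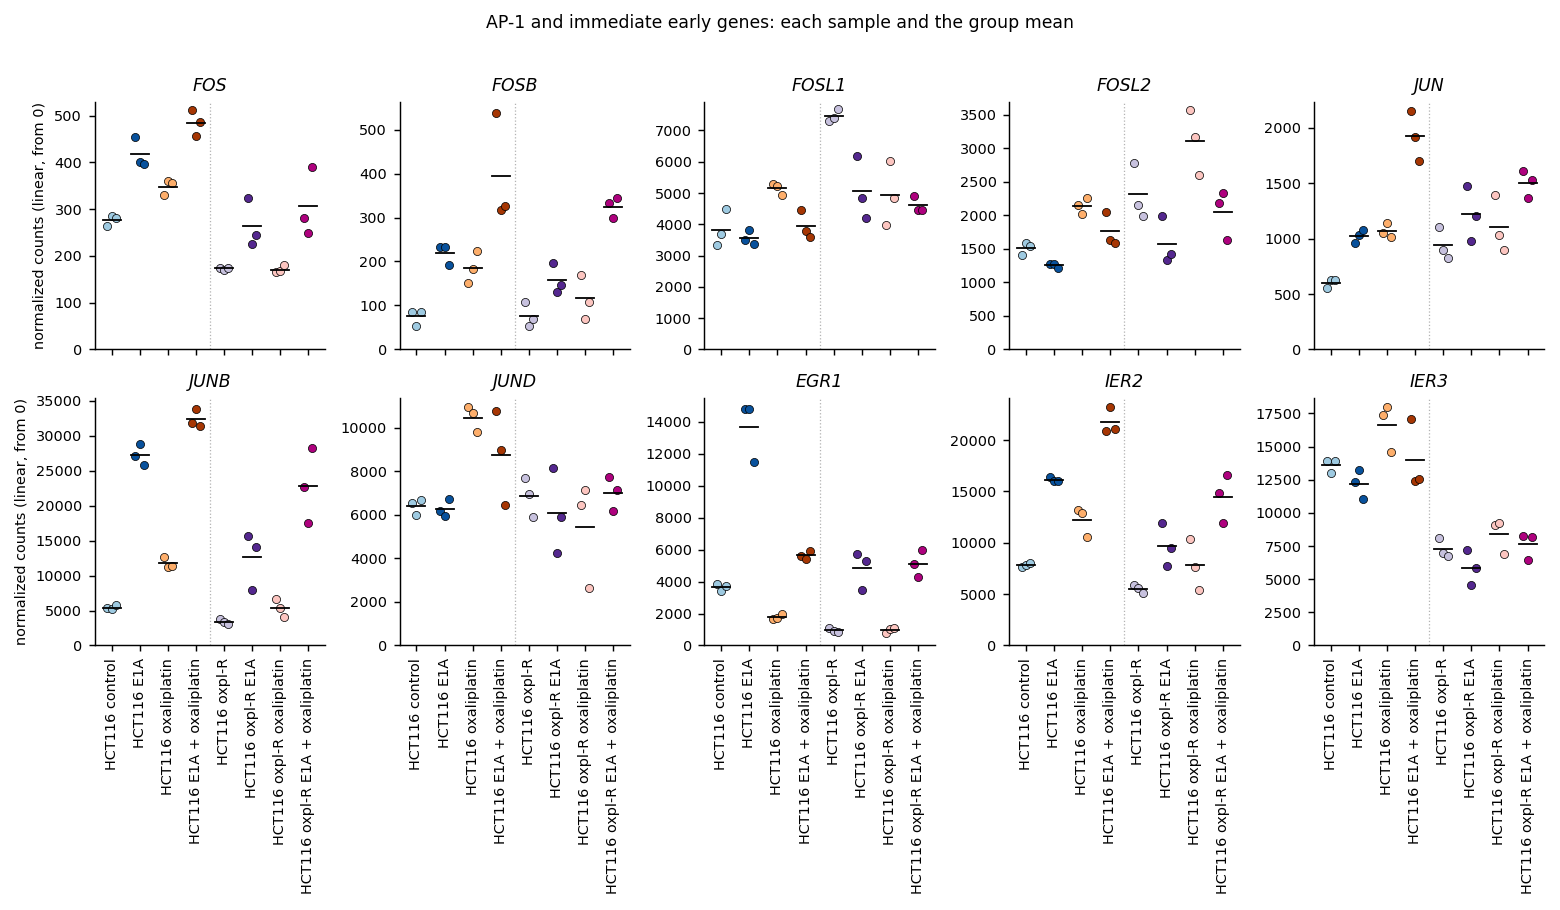
Normalized counts (linear axes from 0) of each of the 10 genes in the 8 groups; points are the 3 samples of a group, horizontal lines are group means, and a dotted line separates HCT116 from HCT116 oxpl-R. JUNB, EGR1, IER2 and FOSB are highest in groups with E1A, whereas FOSL1 is highest in untreated HCT116 oxpl-R (7464 on average) and all 12 IER3 values of HCT116 oxpl-R lie below all 12 of HCT116.

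The first question was which of the 10 genes responded to E1A. In untreated HCT116, E1A upregulated JUNB, EGR1, FOSB and IER2 and downregulated none of the 10. A gene was called at an adjusted p-value below 0.05 in edgeR, and at that threshold 0.432% of the 19452 genes tested were called in either direction and 0.422% as higher. All shares of the genes tested are over these 19452 unless another number is given. In a fit of the 6 samples of this comparison alone, 1559 of 16416 genes were called (9.50%), 477 as higher and 1082 as lower, and of the 10 genes JUN (0.73, adjusted p = 7.01e-04) and FOS (0.55, 0.0122) were called as higher too. The 4 genes called in the fit of all samples are thus read against 0.432%, and the 6 called in the smaller fit against 9.50%. In HCT116 oxpl-R, JUNB and EGR1 were called out of the 10, against 0.226% of all genes. In cells that also received oxaliplatin, JUNB and EGR1 were called in HCT116 (0.0874% of all genes), and EGR1, JUNB, FOSB, IER2 and FOS in HCT116 oxpl-R (1.39% of all genes, 1.29% as higher). JUNB and EGR1 were thus upregulated in all 4 comparisons, which use 4 separate pairs of groups.

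JUNB, a Jun protein that is often less active than JUN as a transcriptional activator, had 5343, 5154 and 5773 normalized counts in HCT116 control and 27079.6, 28798 and 25762 in HCT116 E1A. The samples did not overlap, and the fold change was 5.02 (log2 2.33 ± 0.22 SE, adjusted p = 5.34e-08). In HCT116 oxpl-R it went from 3824, 3392 and 3025 to 15631, 8001 and 14132 (log2 1.88 ± 0.22, adjusted p = 4.98e-06). Replicate 2 was the lowest of these E1A samples and still exceeded every untreated sample of its line. With oxaliplatin, JUNB rose in HCT116 from 12679, 11204 and 11331 to 31828, 33847 and 31430.1 (log2 1.46 ± 0.21, adjusted p = 7.56e-04). In HCT116 oxpl-R with oxaliplatin it rose from 6682, 5376 and 4036 to 22591, 17503 and 28184 (log2 2.08 ± 0.22, adjusted p = 2.58e-07). The highest JUNB level of any group was in HCT116 E1A + oxaliplatin, at 32369 ± 1296 (SD, n = 3), and the lowest in HCT116 oxpl-R, at 3413 ± 400.0.

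EGR1, a zinc finger transcription factor and a standard readout of ERK signalling, had 3826, 3417 and 3754 normalized counts in HCT116 control and 14800.4, 14792 and 11477 in HCT116 E1A (log2 1.90 ± 0.19, adjusted p = 1.02e-07). In HCT116 oxpl-R it had 1067, 932 and 868 without and 5711, 3490 and 5313 with E1A (log2 2.34 ± 0.19, adjusted p = 2.50e-09). The groups did not overlap in either line, and EGR1 with E1A in HCT116 oxpl-R (4838 ± 1184, SD, n = 3) overlapped the untreated samples of HCT116 (3666 ± 218). With oxaliplatin, E1A raised EGR1 in HCT116 from 1636, 1727 and 1989 to 5587, 5424 and 5899 (log2 1.66 ± 0.19, adjusted p = 5.10e-06). In HCT116 oxpl-R the same comparison went from 808, 1013 and 1085 to 5094, 4273 and 5961 (log2 2.40 ± 0.19, adjusted p = 1.11e-09). The calls of JUNB and EGR1 were kept when any single library was left out.

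FOSB, a Fos family protein with a low basal level in most cells, had 85.2, 54.1 and 85.6 normalized counts in HCT116 control and 233, 232 and 192 in HCT116 E1A (log2 1.55 ± 0.30, adjusted p = 0.00880). Without HCT116 control replicate 2, the lowest control, the log2 fold change was 1.36 with an adjusted p of 0.138, and on a second deposited table of length-scaled counts it was 1.18 with an adjusted p of 0.240. In HCT116 oxpl-R with oxaliplatin, FOSB rose from 169.6, 70.0 and 108 to 332, 299 and 344 (log2 1.48 ± 0.30, adjusted p = 0.00404), and without HCT116 oxpl-R oxaliplatin replicate 2 the value was 1.20 with an adjusted p of 0.0679. The groups did not overlap in either case. In the other two E1A comparisons the log2 fold change was 1.05 (HCT116 oxpl-R, adjusted p = 0.252) and 1.09 (HCT116 with oxaliplatin, adjusted p = 0.503), without a call although the samples did not overlap there either.

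IER2, a nuclear protein that is induced together with FOS by serum, rose in HCT116 from 7677, 7817 and 8038 to 16387, 15977 and 15971 normalized counts (log2 1.04 ± 0.20, adjusted p = 0.00575). These samples lay far apart, but without HCT116 control replicate 1 or 2 the adjusted p was 0.0601 or 0.0559, with log2 fold changes of 1.02 and 1.04. In HCT116 oxpl-R with oxaliplatin it rose from 10391, 7665 and 5411 to 14827, 11883 and 16596 (log2 0.88 ± 0.20, adjusted p = 0.0108). That call was lost without HCT116 oxpl-R oxaliplatin replicate 2 (0.85, adjusted p = 0.0563) or 3 (0.67, 0.0817), or without HCT116 oxpl-R E1A + oxaliplatin replicate 3 (0.75, 0.104). FOS, the founding Fos protein, went from 166, 167 and 179 to 281, 248 and 389 in the same comparison (log2 0.84 ± 0.20, adjusted p = 0.0244). The FOS call was lost without replicate 1 (0.82, adjusted p = 0.0785) or 2 (0.81, 0.127) of HCT116 oxpl-R oxaliplatin, or replicate 1 (0.90, 0.0505) or 3 (0.61, 0.304) of HCT116 oxpl-R E1A + oxaliplatin.

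JUN, the prototype AP-1 subunit, was not called in any E1A comparison in the main fit of all samples, which had no replicate block. It had 554, 622 and 626 normalized counts in HCT116 control and 962, 1034 and 1076 in HCT116 E1A, which did not overlap (log2 0.77 ± 0.19, adjusted p = 0.0569). With oxaliplatin the value in HCT116 was 0.85 ± 0.19 (adjusted p = 0.0853), and in HCT116 oxpl-R the values were 0.37 without and 0.44 with oxaliplatin, where the samples overlapped. With the replicate as a block in the fit of all 24 samples, JUN was called as higher in HCT116. The values were 0.77 (adjusted p = 0.0338) without oxaliplatin and 0.84 (0.0478) with it. Same-numbered samples did not all deviate together in these comparisons. FOSL1, FOSL2, JUND and IER3, the other genes without a call, had log2 fold changes from −0.60 (FOSL2, HCT116 oxpl-R with oxaliplatin, adjusted p = 0.116) to 0.37 (JUND, same comparison, adjusted p = 0.733). FOSL2 was below 0 in all 4 comparisons, with values of −0.27, −0.29, −0.55 and −0.60, and FOSL1 likewise, with −0.11, −0.38, −0.56 and −0.10. The median log2 fold change of the 10 genes was 0.68 in HCT116, 0.49 in HCT116 oxpl-R, and with oxaliplatin 0.65 and 0.64, where the median over all genes tested was 0.00 in each.

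**Figure D2:**
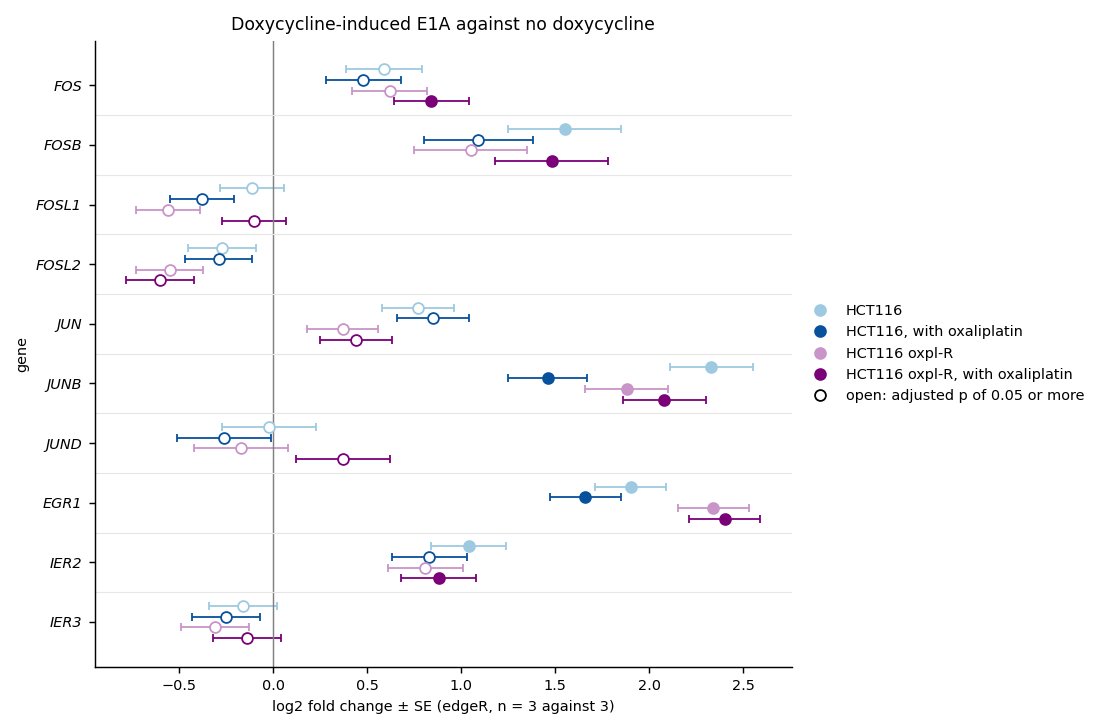
Log2 fold change of each gene with E1A against no doxycycline in the same line and drug condition; points are edgeR estimates from 3 against 3 samples, horizontal bars are standard errors, and filled points have an adjusted p below 0.05. JUNB (1.46 to 2.33) and EGR1 (1.66 to 2.40) are filled in all 4 comparisons, while FOSL1, FOSL2, JUND and IER3 are open in all 4.

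E1A itself differed between libraries with doxycycline. HCT116 E1A + oxaliplatin replicate 1 had 5826 normalized counts of the transgene, against 15713 and 14447 in replicates 2 and 3, while JUNB was 31828, 33847 and 31430.1 and EGR1 5587, 5424 and 5899 in the same order. In HCT116, oxaliplatin lowered the transgene among E1A samples (log2 −0.93 ± 0.24, adjusted p = 0.0115), and its part in the E1A comparisons with oxaliplatin was not tested. Without doxycycline, the low transgene level was higher in HCT116 oxpl-R than in HCT116 under oxaliplatin (log2 0.75 ± 0.25, adjusted p = 0.0236). In untreated cells this difference was 0.61 ± 0.25 (adjusted p = 0.109), and the samples overlapped in neither case. Its part in the comparisons of the lines was not tested. The response to E1A was then compared between the lines and between drug conditions by interaction terms, and 0 of the 10 genes were called in edgeR in any of the 4 terms, nor in DESeq2. At an unadjusted p below 0.05 there were 0 genes for the lines without and 2 for the lines with oxaliplatin (EGR1, 0.74 ± 0.26, adjusted p = 0.751; JUNB, 0.62 ± 0.30, adjusted p = 1.00). For the drug there was 1 in HCT116 (JUNB, −0.86 ± 0.30, adjusted p = 1.00) and 0 in HCT116 oxpl-R. Among all genes 0.0103%, 0.134%, 0.0103% and 0.0360% were called in these terms.

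The second question was which of the genes responded to 24 h of oxaliplatin. In HCT116, oxaliplatin upregulated FOSB, JUNB, JUN, JUND and IER2 and downregulated EGR1, 6 of 10 genes, where 17.4% of all genes were called. Among all genes 8.74% were called as higher and 8.61% as lower, against 5 and 1 of the 10 here. In a fit of the 12009 genes that passed an expression filter (filterByExpr), 32.1% were called. In HCT116 oxpl-R the drug left 1 gene called, FOSL1, which was downregulated, where 6.11% of all genes were called (3.10% higher and 3.01% lower). A count of 1 in 10 is near that share and is no result about the 10 genes as a set. All 3 libraries of HCT116 oxpl-R oxaliplatin were most like a library of another group, with r within their own group of at most 0.953. Replicate 3 was most like an untreated HCT116 oxpl-R library (r = 0.960, against 0.944 within its group). The part of this spread in the fewer calls of HCT116 oxpl-R was not tested. Oxaliplatin comparisons without E1A share the untreated samples with the E1A comparisons above.

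In HCT116, FOSB went from 85.2, 54.1 and 85.6 to 150.0, 183 and 224 normalized counts (log2 1.31 ± 0.30, adjusted p = 0.00304). JUNB went to 12679, 11204 and 11331, 2.16-fold the control level (log2 1.11 ± 0.21, adjusted p = 4.99e-04). JUN, whose protein is activated by JNK after DNA damage, rose from 554, 622 and 626 to 1053, 1142 and 1011 (log2 0.83 ± 0.19, adjusted p = 0.00240). These 3 calls were kept under every alternative. JUND, which pairs with other AP-1 proteins in unstimulated cells, rose from 6526, 5977 and 6673 to 10962, 10664 and 9796 (log2 0.71 ± 0.25, adjusted p = 0.0454). IER2 rose from 7677, 7817 and 8038 to 13198, 12912 and 10574 (log2 0.64 ± 0.19, adjusted p = 0.0209). The JUND call was lost without any one of the 3 control samples or replicate 1 or 2 of HCT116 oxaliplatin, with adjusted p up to 0.147, and the IER2 call without control replicate 1 or 2, with adjusted p up to 0.0761.

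EGR1 moved the other way. It fell from 3826, 3417 and 3754 to 1636, 1727 and 1989 normalized counts in HCT116 (log2 −1.04 ± 0.18, adjusted p = 1.96e-04), and in the presence of E1A from 14800.4, 14792 and 11477 to 5587, 5424 and 5899 (log2 −1.28 ± 0.18, adjusted p = 2.42e-05). No sample with the drug reached any sample without it, and both calls were kept under every alternative. In HCT116 oxpl-R, EGR1 stayed between 808 and 1085 in the 6 samples without E1A (log2 0.02 ± 0.18, adjusted p = 1.00) and was 0.08 ± 0.18 with E1A. The oxaliplatin response of EGR1 differed between the lines by the interaction term, by 1.06 ± 0.26 without E1A (adjusted p = 0.0201) and by 1.36 ± 0.26 with E1A (adjusted p = 0.0126), where 2.78% and 0.195% of all genes were called. Without the 2 libraries that resembled each other across groups, the terms were 1.03 (adjusted p = 0.00844) and 1.25 (adjusted p = 0.0146), and 1901 (9.84%) and 66 (0.342%) of 19326 genes were called, so the first share rose by more than 1.5 times. Both terms were lost when single libraries were left out, with adjusted p up to 0.0889 and 0.115. The first was lost without replicate 1 or 3 of HCT116 control, 1 or 2 of HCT116 oxaliplatin, 2 or 3 of HCT116 oxpl-R, or 3 of HCT116 oxpl-R oxaliplatin, and stayed between 0.91 and 1.17. The second was lost without replicate 1 or 2 of HCT116 E1A, 2 or 3 of HCT116 E1A + oxaliplatin, 2 of HCT116 oxpl-R E1A, or 3 of HCT116 oxpl-R E1A + oxaliplatin, and in a fit of the 4 groups alone, and stayed between 1.09 and 1.5.

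FOSL1, a Fos family protein that is known to be raised by oncogenic RAS signalling, also responded differently in the lines without E1A. With E1A present the interaction was −0.29 ± 0.24 and not called (adjusted p = 0.907). The drug responses there were 0.15 in HCT116 and −0.14 in HCT116 oxpl-R. Without E1A, FOSL1 had 3326, 3693 and 4477 normalized counts in HCT116 control and 5298, 5223 and 4939 in HCT116 oxaliplatin (log2 0.43 ± 0.17, adjusted p = 0.0847). In HCT116 oxpl-R it went from 7297, 7399 and 7697 down to 3965, 6008 and 4845 (log2 −0.60 ± 0.17, adjusted p = 0.0304). The interaction without E1A was −1.02 ± 0.24 (adjusted p = 0.0165). Its call was lost without HCT116 control replicate 1 or 2, with adjusted p up to 0.0729, while without the 2 libraries it was −1.17 (adjusted p = 0.00123). Untreated HCT116 oxpl-R was the group with the highest FOSL1 level, and with the drug the lines overlapped. The decrease in HCT116 oxpl-R was lost without any one untreated HCT116 oxpl-R sample or replicate 1 or 3 of HCT116 oxpl-R oxaliplatin, with adjusted p up to 0.169. In that comparison same-numbered samples deviated together, though the labels do not say that they are paired. With the replicate as a block in the fit of all 24 samples, JUNB was called too (log2 0.65, adjusted p = 0.0468, against 0.0628 without the block), so that 2 genes were called in place of 1.

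FOSL2, IER3 and FOS had log2 fold changes of 0.51, 0.29 and 0.33 with oxaliplatin in HCT116, none called. Without the 2 libraries that resembled each other across groups, FOSL1 (0.56, adjusted p = 0.0140), FOSL2 (0.57, 0.0187) and IER3 (0.47, 0.0380) were called as higher in HCT116, and 9 of 10 genes were then called there, against 26.2% of 19326 genes. With E1A present, oxaliplatin upregulated JUN in HCT116 (log2 0.91 ± 0.19, adjusted p = 0.00201) beside the decrease of EGR1, where 8.09% of all genes were called (3.40% higher and 4.69% lower). JUN there rose from 962, 1034 and 1076 to 2155, 1921 and 1700 normalized counts, its highest level in any group. In HCT116 oxpl-R with E1A, the drug upregulated JUNB (log2 0.85 ± 0.21, adjusted p = 0.0180) and FOSB (1.04 ± 0.29, adjusted p = 0.0462), where 2.80% of all genes were called (1.70% higher and 1.10% lower). The JUNB call was lost without HCT116 oxpl-R E1A replicate 2 (0.61, adjusted p = 0.180) or HCT116 oxpl-R E1A + oxaliplatin replicate 3 (0.65, 0.180). The FOSB call was lost without any of 5 single libraries of the 6, all but HCT116 oxpl-R E1A replicate 1, with adjusted p from 0.0844 to 0.230.

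**Figure D3:**
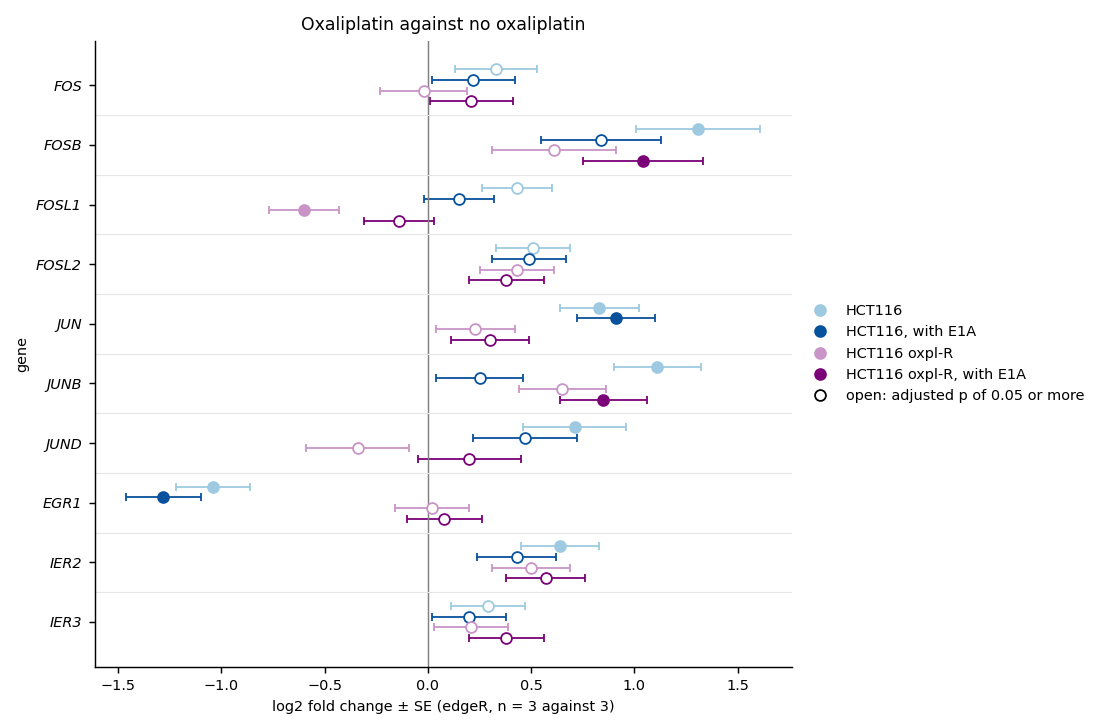
Log2 fold change of each gene with oxaliplatin against no oxaliplatin in the same line and E1A condition; points are edgeR estimates from 3 against 3 samples, horizontal bars are standard errors, and filled points have an adjusted p below 0.05. EGR1 lies at −1.04 and −1.28 in HCT116 and at 0.02 and 0.08 in HCT116 oxpl-R. FOSL1 lies at 0.43 in HCT116 and −0.60 in HCT116 oxpl-R without E1A, and at 0.15 and −0.14 with E1A.

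The third question was how the resistant line differed from HCT116 in these genes. In untreated cells, FOSL1, JUN and FOSL2 were higher and EGR1, IER3, FOS and JUNB lower in HCT116 oxpl-R, 7 of 10 genes, where 14.1% of all genes were called (7.19% higher and 6.93% lower). With E1A 1 gene was higher and 5 were lower, against 14.4% of all genes (6.69% higher and 7.75% lower). With oxaliplatin 1 was higher and 6 were lower, against 25.6% of all genes in either direction. With both treatments 0 were higher and 3 lower, against 19.3% (10.3% higher and 8.92% lower). A count of 3 in 10 is near that share and is no result about the 10 genes as a set. These shares include genes with very few counts. In a fit of the 12009 genes that passed an expression filter (filterByExpr), they were 26.1% untreated and 26.4% with E1A. With oxaliplatin they were 44.9%, and with both treatments 35.3%. IER3 and FOS were lower in HCT116 oxpl-R in all 4 conditions, and the 4 comparisons use separate samples. The calls of IER3 were kept under every alternative, whereas for FOS only the call with oxaliplatin was.

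EGR1 had the largest difference, with 3417 to 3826 normalized counts in HCT116 control and 868 to 1067 in HCT116 oxpl-R, a 3.84-fold lower level (log2 −1.94 ± 0.19, adjusted p = 3.87e-09). It was also lower with E1A (−1.50 ± 0.18, adjusted p = 5.59e-07) and with oxaliplatin (−0.88 ± 0.18, adjusted p = 4.04e-04). With both treatments the lines overlapped, at 5424 to 5899 in HCT116 and 4273 to 5961 in HCT116 oxpl-R (−0.14 ± 0.18, adjusted p = 0.674). IER3, which modulates apoptosis and ERK signalling, had 13935, 13001 and 13938 in HCT116 control and 8106, 6973 and 6780.0 in HCT116 oxpl-R (log2 −0.90 ± 0.19, adjusted p = 7.84e-04). Its log2 differences in the other 3 conditions were −1.05, −0.98 and −0.87, with adjusted p from 1.29e-04 to 8.25e-04, and all 4 calls were kept under every alternative. Every one of the 12 HCT116 values of IER3 (11021 to 17996) exceeded every one of the 12 HCT116 oxpl-R values (4569.6 to 9257).

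FOS had 263, 285 and 282 normalized counts in HCT116 control and 174, 171 and 175 in HCT116 oxpl-R (log2 −0.68 ± 0.20, adjusted p = 0.0226). The log2 differences were −0.65 with E1A, −1.03 with oxaliplatin and −0.66 with both (adjusted p = 0.0260, 2.53e-04 and 0.0180). The oxaliplatin call was kept under every alternative. The untreated call was lost without HCT116 control replicate 2 or 3 or any one HCT116 oxpl-R sample, the call with E1A without replicate 1 or 2 of HCT116 E1A or 2 or 3 of HCT116 oxpl-R E1A, and the call with both without replicate 1 or 2 of HCT116 oxpl-R E1A + oxaliplatin, with adjusted p up to 0.155. On the second table in edgeR the untreated FOS call was lost (−0.53, adjusted p = 0.0854). The FOS call with E1A was lost with RLE normalization (−0.59, 0.0509). It was also lost in a fit of the compared groups alone, without (−0.55, 0.0928) and with (−0.56, 0.0860) the replicate as a block. In a fit of the compared groups alone the FOS call with both was lost (−0.66, 0.0744). JUNB was lower in the resistant line without treatment (−0.67 ± 0.21, adjusted p = 0.0299), with E1A (−1.11 ± 0.21, adjusted p = 4.01e-04) and with oxaliplatin (−1.13 ± 0.21, adjusted p = 1.25e-04), and was −0.51 with both (adjusted p = 0.0940). The untreated JUNB call was lost without any one HCT116 control sample or replicate 2 or 3 of HCT116 oxpl-R, with adjusted p up to 0.123. IER2 was lower with E1A (−0.73, adjusted p = 0.00959), oxaliplatin (−0.64, 0.0128) and both (−0.59, 0.0301), and was −0.51 untreated (0.0855), each call being lost without 1 or 2 libraries of HCT116 oxpl-R. Those libraries were E1A replicate 2, oxaliplatin replicate 3, and E1A + oxaliplatin replicates 1 and 2, with adjusted p up to 0.179. The IER2 call with oxaliplatin was also lost in a fit of the compared groups alone (−0.74, adjusted p = 0.0630).

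FOSL1 had 3326, 3693 and 4477 normalized counts in HCT116 control and 7297, 7399 and 7697 in HCT116 oxpl-R, a 1.95-fold higher level (log2 0.96 ± 0.17, adjusted p = 1.57e-04), and this call was kept under every alternative. It was 0.51 ± 0.17 with E1A (adjusted p = 0.0411), a call that was lost without any of 5 single libraries (all but HCT116 oxpl-R E1A replicate 3, adjusted p up to 0.249). With oxaliplatin, FOSL1 was at −0.06, and with both treatments at 0.22, without a call. JUN was higher in untreated HCT116 oxpl-R (1107, 896 and 827, against 554, 622 and 626, log2 0.65 ± 0.19, adjusted p = 0.0161), and lost the call without replicate 1 of either group, with adjusted p up to 0.130. FOSL2 was higher in HCT116 oxpl-R untreated (0.62 ± 0.18, adjusted p = 0.0210) and with oxaliplatin (0.54 ± 0.18, adjusted p = 0.0282). The first call was lost without any one HCT116 control sample or HCT116 oxpl-R replicate 1 (adjusted p up to 0.171), and the second without any of 5 of its 6 libraries, all but HCT116 oxpl-R oxaliplatin replicate 3 (up to 0.139). The second was also lost with RLE normalization (0.49, adjusted p = 0.0512) and in a fit of the compared groups alone, without (0.45, 0.162) and with (0.44, 0.218) the replicate as a block.

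JUND differed between the lines in 1 condition. With oxaliplatin it had 10962, 10664 and 9796 normalized counts in HCT116 and 6459, 7161 and 2650.1 in HCT116 oxpl-R (log2 −0.95 ± 0.25, adjusted p = 0.00432). Replicate 3 of HCT116 oxpl-R oxaliplatin was far below the other two, and without it the log2 difference was −0.69 (adjusted p = 0.0201). The same library was lowest of its group for JUNB, IER2, FOSL2, JUN and IER3. The interaction of oxaliplatin and line for JUND was −1.05 ± 0.35 (adjusted p = 0.108). Its adjusted p was 0.0386 in DESeq2 and 0.0176 without the 2 libraries that resembled each other. Without HCT116 oxpl-R oxaliplatin replicate 3 the interaction was −0.78 (adjusted p = 0.189). Without HCT116 control replicate 1 or 2 its adjusted p was 0.195 or 0.243. FOSB was 0.02 untreated and −0.68 ± 0.30 with oxaliplatin (adjusted p = 0.0996). Between the lines with oxaliplatin, same-numbered samples deviated together. With the replicate as a block in the fit of all 24 samples, FOSB was called as lower in HCT116 oxpl-R (−0.76, adjusted p = 0.0246).

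**Figure D4:**
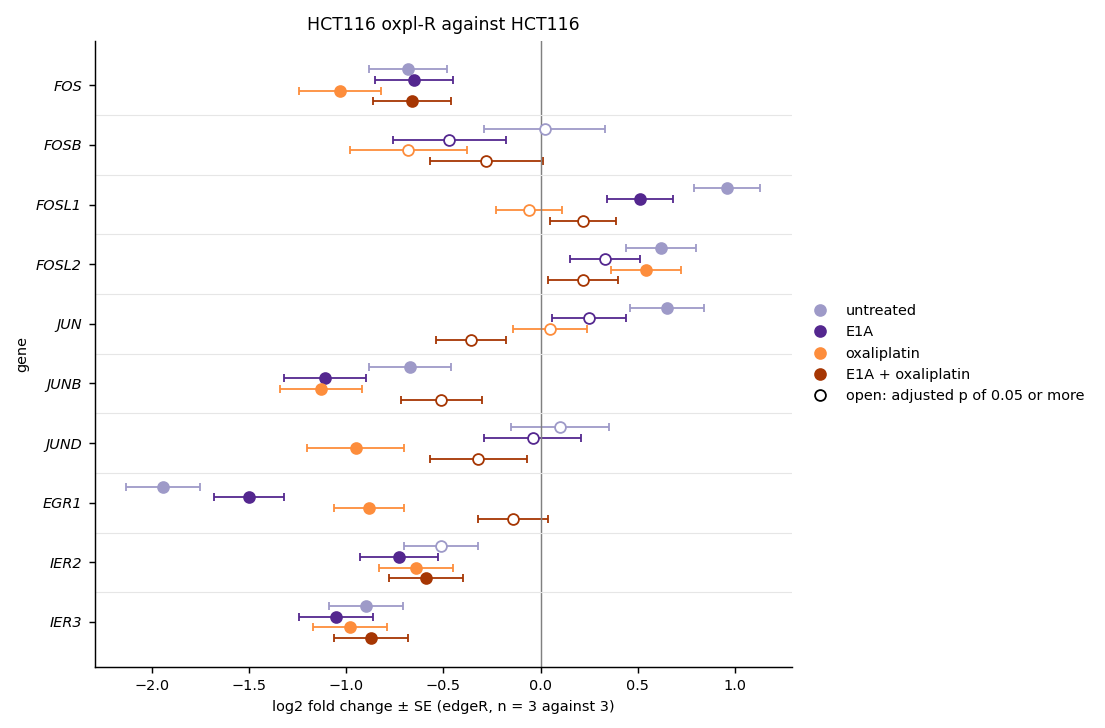
Log2 fold change of each gene in HCT116 oxpl-R against HCT116 in the same condition; points are edgeR estimates from 3 against 3 samples, horizontal bars are standard errors, and filled points have an adjusted p below 0.05. IER3 (−1.05 to −0.87) and FOS (−1.03 to −0.65) are filled to the left of 0 in all 4 conditions, and FOSL1 moves from 0.96 untreated to −0.06 with oxaliplatin.

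The other genes of the pathway were described by 5 lists. The count table used ends at the symbol SETP6, so 9 list genes with later symbols were tested only on the second table, and the lists are not complete in the counts given here. Of 34 other immediate early genes, 31 were in the count table used. With E1A, 5 of 31 were upregulated in HCT116 and 4 in HCT116 oxpl-R, and with oxaliplatin 3 and 4, none being downregulated, where 0.432%, 0.226%, 0.0874% and 1.39% of all genes were called. In the fit of the 6 HCT116 samples alone 16 were called in HCT116, where 9.50% of genes were. ARC (a synaptic immediate early gene) and EGR3 (a relative of EGR1) were upregulated in all 4 comparisons. ARC went from 688 ± 40.7 to 2988 ± 138 normalized counts (SD, n = 3) in HCT116 (log2 2.12 ± 0.23, adjusted p = 7.19e-07) and from 515 ± 14.1 to 1359 ± 542 in HCT116 oxpl-R (1.40 ± 0.23, adjusted p = 0.00125). EGR3 went from 69.4 ± 0.46 to 226 ± 26.2 in HCT116 (1.70 ± 0.27, adjusted p = 5.34e-04) and from 50.1 ± 19.6 to 166 ± 53.0 in HCT116 oxpl-R (1.73 ± 0.28, adjusted p = 0.00102). CCN2, a matricellular protein, had log2 fold changes of 2.18 and 1.48 in the lines without drug. DUSP1, a phosphatase of MAP kinases, was called in 3 comparisons, with 1.16 ± 0.18 in HCT116 oxpl-R with oxaliplatin (463 ± 15.3 to 1033 ± 34.3, adjusted p = 1.28e-04). GADD45B, a stress protein that acts on the JNK and p38 pathways, was upregulated with oxaliplatin in HCT116 (829 ± 197 to 2179 ± 363, log2 1.40 ± 0.21, adjusted p = 7.56e-04).

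The signalling genes and the AP-1 targets are read against the same shares of all genes, and with at most 1.39% called a count of 0 or 1 in such lists is near the background and is no result about them. Among 38 MAP kinase pathway genes and SRF or ETS activators tested, 0 were called by edgeR in the 4 E1A comparisons, 2, 1, 0 and 1 had an unadjusted p below 0.05 and 0 were called in DESeq2. Among 24 other bZIP genes tested, which encode possible partners of Fos and Jun, 0 were called, with 4, 2, 0 and 3 at an unadjusted p below 0.05 and 0, 1, 0 and 1 called in DESeq2. Of 34 AP-1 target genes, 1 was called in edgeR, the cyclin gene CCND1, which was downregulated in HCT116 oxpl-R with oxaliplatin from 35125 ± 3906 to 21729 ± 3695 normalized counts (log2 −0.69 ± 0.17, adjusted p = 0.0279). In the other 3 comparisons 0 targets were called, with 8, 13 and 6 at an unadjusted p below 0.05 in HCT116, HCT116 oxpl-R and HCT116 with oxaliplatin, and 2, 2 and 0 in DESeq2. Of 14 ERK feedback and output genes tested, EPHA2, an ephrin receptor, was upregulated in HCT116 (6864 ± 450.4 to 14450.4 ± 781, log2 1.07 ± 0.17, adjusted p = 5.70e-04). In the fit of the 6 HCT116 samples alone, 5 pathway genes, 5 other bZIP genes, 8 AP-1 targets and 4 ERK feedback and output genes were called in HCT116. DUSP4, a phosphatase of ERK, and CCND1, which is in both lists, were downregulated in HCT116 oxpl-R with oxaliplatin (DUSP4 −0.68 ± 0.18, adjusted p = 0.0492).

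With oxaliplatin the same lists gave more calls. In HCT116, 15 of 31 other immediate early genes were upregulated and 1, MCL1, was downregulated, and in HCT116 oxpl-R 11 were upregulated and 1, IER5L, was downregulated, where 17.4% and 6.11% of all genes were called. The p53 target BTG2 had the largest increase, from 915 ± 59.2 to 4748 ± 631 normalized counts in HCT116 (log2 2.38 ± 0.16, adjusted p = 2.41e-11) and from 1778 ± 18.6 to 6712 ± 973 in HCT116 oxpl-R (1.92 ± 0.16, adjusted p = 6.20e-10). PLK3, a stress kinase, and ATF3, a bZIP protein of the stress response, rose in HCT116 oxpl-R by 1.60 ± 0.18 and 1.23 ± 0.19. ARC rose with the drug in HCT116 (log2 1.66 ± 0.23, adjusted p = 8.38e-06) and was not called in HCT116 oxpl-R without E1A. Of 34 AP-1 targets, 11 were upregulated and 4 downregulated in HCT116, and 9 were upregulated in HCT116 oxpl-R. LAMB3, a laminin subunit, rose in both, by 1.71 ± 0.19 and 1.13 ± 0.19, and ITGB4, its integrin receptor's subunit, rose by 1.01 ± 0.18 in HCT116 oxpl-R. EREG, a ligand of the EGF receptor, fell in HCT116 from 20121 ± 1120.3 to 8006 ± 839 (log2 −1.33 ± 0.27, adjusted p = 0.00109). Of 38 MAP kinase pathway genes and activators, 4 rose and 8 fell in HCT116, with NRAS at −1.31 ± 0.30, against 1 called in HCT116 oxpl-R (MAPK13, 0.61 ± 0.17, adjusted p = 0.0241). Of 24 other bZIP genes, 7 rose and 5 fell in HCT116, and 3 fell in HCT116 oxpl-R, where ATF4, the main factor of the integrated stress response, went from 39927 ± 5253 to 19738 ± 1893 (log2 −1.02 ± 0.21, adjusted p = 0.00208). The summed CPM of the epithelial markers was higher with oxaliplatin in both lines (10735 to 10962 against 6046 to 6523 in HCT116, and 10324 to 17608 against 7378 to 8076 in HCT116 oxpl-R), and the part of that change in these results was not tested.

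Between the untreated lines, 6 of 31 other immediate early genes were higher and 8 lower in HCT116 oxpl-R, where 14.1% of all genes were called (7.19% higher and 6.93% lower). PLK2, a stress-induced kinase, was higher, at 6371 ± 454 against 1017 ± 104 normalized counts (log2 2.65 ± 0.20, adjusted p = 3.27e-11), and the orphan nuclear receptor NR4A2 was lower, at 85.0 ± 7.99 against 555 ± 29.9 (−2.71 ± 0.28, adjusted p = 1.53e-08). RHOB, a small GTPase, and DUSP2, a MAP kinase phosphatase, were lower by −1.57 ± 0.17 and −1.23 ± 0.21 on the log2 scale. Of 34 AP-1 targets 7 were higher and 3 lower. Among them S100A2 and MMP14, a calcium-binding protein and a membrane-bound matrix metalloproteinase, were higher (1.96 ± 0.29 and 1.68 ± 0.22), MMP13, a collagenase, went from 0.98 ± 0.98 to 52.9 ± 5.63 normalized counts, and AREG, another EGF receptor ligand, was lower (−1.27 ± 0.18, adjusted p = 4.40e-06). Of 19 ERK feedback and output genes, 14 were in the count table used, of which 5 were higher and 1 lower. On the second table, in edgeR, SPRY4 (−1.46 ± 0.20, adjusted p = 4.76e-06) and SPRED2 (−0.64 ± 0.21, adjusted p = 0.0424), both inhibitors of the ERK pathway, were lower, and SPRY1 (0.79), SPRY2 (−0.57) and SPRED1 (−0.36) were not called. Of the immediate early genes tested only there, TRIB1 was lower (−1.53 ± 0.17, adjusted p = 1.77e-07), SGK1 higher (1.07 ± 0.23, adjusted p = 0.00169) and SRF not called (−0.44, adjusted p = 0.0642). DUSP10, a phosphatase of JNK and p38, and DUSP5, a phosphatase of ERK, went in opposite directions, at 1.88 ± 0.21 and −0.58 ± 0.17. Of 38 pathway genes and activators 2 were higher and 4 lower, with ETS2 lowest at −1.19 ± 0.15 (adjusted p = 9.03e-07), which is close to the share over all genes and is no result about that list. In a fit of the 6 untreated samples alone, 28.3% of genes were called, and 16 of these 38.

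**Figure D5:**
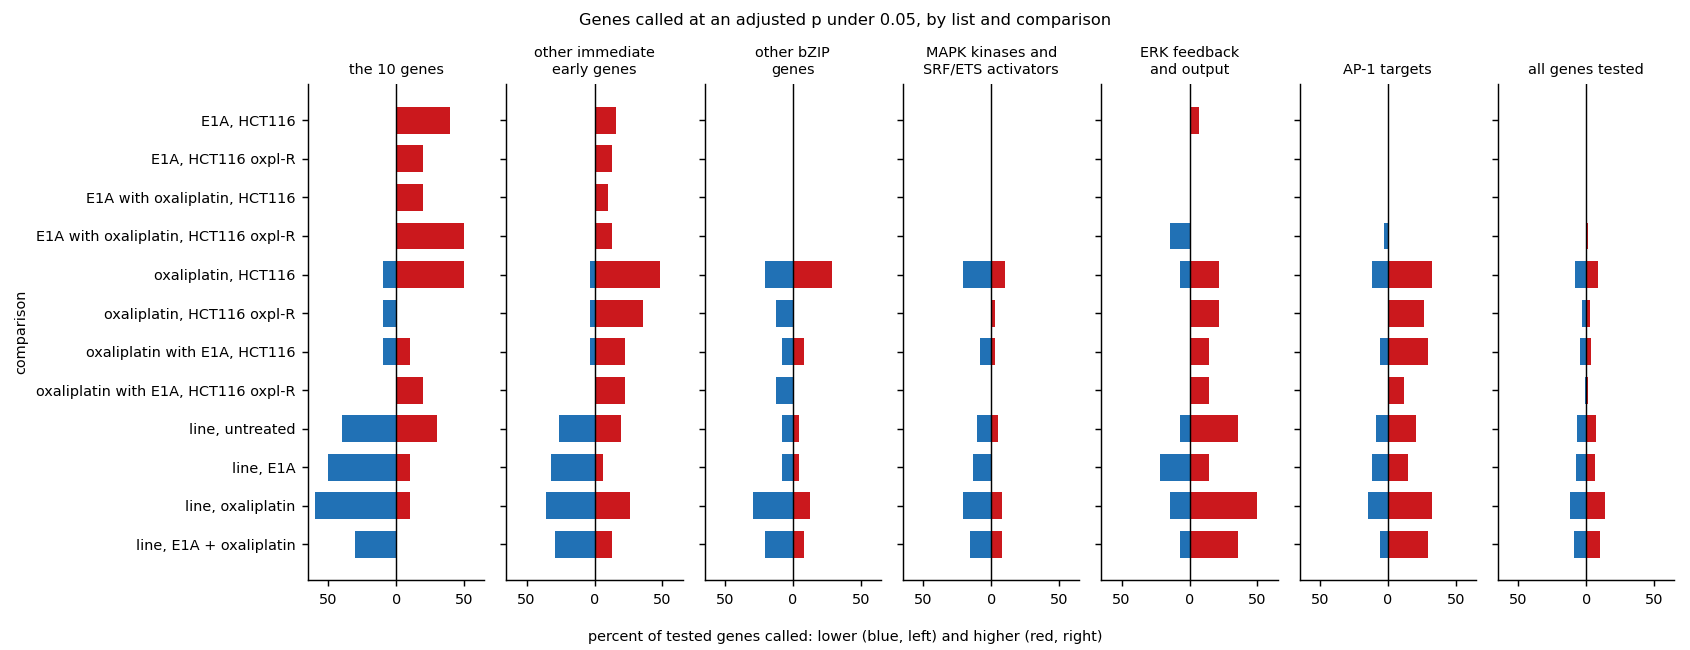
Percent of the tested genes of each list that were called at an adjusted p below 0.05 in the 12 comparisons, with higher genes to the right (red) and lower genes to the left (blue) of 0; the rightmost panel gives all 19452 genes tested. With E1A, calls occur mainly among the 10 genes and the other immediate early genes, where 0.0874% to 1.39% of all genes were called, while with oxaliplatin and between the lines all lists hold calls in at least 1 comparison.

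FOS, FOSL1, JUN, EGR1 and IER3 were set against 9507 genes with a mean of at least 50 counts, by Pearson's r of log2(CPM + 1) over the 24 samples. These samples are 8 groups of 3, so r mainly follows the group means and is given as a description. The genes most like EGR1 were BRD2 (0.940), HSPA1B (0.927) and KLF15 (0.913). For IER3 they were FSCN1 and IRF2BPL (both 0.970) and NR1D1 (0.961), and for FOS they were NRARP (0.945), CACNA1G and IL27RA (both 0.927). JUN was most like CHRD (0.924), FSD1 (0.918) and DUOXA1 (0.905). FOSL1 had the loosest companions of the 5, MUC1 (0.898), FGF19 (0.887) and FXYD5 (0.858). None of these 15 genes was one of the 10.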

How the data were processed

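RNA-seq was done on 24 samples in 8 groups of 3, which the labels number as biological replicates. A legend of the study also calls its experiments biological triplicates. P-values set a difference against the spread between samples of a group, which the main fit estimated over all 8 groups together. The authors trimmed reads with Trimmomatic, quantified them with Salmon 1.6.0 on GENCODE transcripts of GRCh38 with sequence and GC bias correction, with gene totals made by tximport. The deposited values are estimated counts from the authors, not normalized, of which 15.9% to 30.4% per sample were not whole, and these were rounded. The table used here holds 33113 genes sorted by symbol and breaks off within the line after SETP6. Genes with later symbols were not in the main test, and all shares of all genes are over the genes before that point. The second table breaks off after TSC22D3. A second deposited table, of 37967 genes, is named as TPM, but its columns sum to 28004261 to 42613322, so it was read as length-scaled estimated counts and served as an alternative. This differs from the unit assumed when the tests were planned.

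Counts were compared with edgeR 4.0.16 in R 4.3.3, with TMM normalization and the quasi-likelihood test, in 1 fit of all 24 samples with 8 group means. P-values were adjusted by Benjamini-Hochberg over the 19452 genes detected in at least 1 sample, and a gene was called below 0.05. SE is the log2 fold change divided by the root of F. Alternatives were RLE normalization, filterByExpr, DESeq2 1.42.0, a replicate block, a fit of the compared groups only, limma 3.58.1 on log2 values of the second table plus 1 or 0.1, and leaving out each library. The fits were first tested on simulated counts. Tables and plots were made in Python 3.11.15 with pandas 2.3.3, numpy 2.4.6 and matplotlib 3.10.9.

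The 10 genes and the lists were chosen with earlier results of these data known. All 10 are named, and from each list up to 3 called genes with the largest and 3 with the smallest log2 fold change and at least 50 mean normalized counts in the higher group could be named. A gene that this rule would allow is not reported here. Same-numbered samples deviated together (every correlation over 0.1) in 3 comparisons: the lines with oxaliplatin (0.134, 0.145 and 0.257), oxaliplatin in HCT116 oxpl-R (0.101, 0.438 and 0.552), and oxaliplatin with E1A in HCT116 oxpl-R (0.391, 0.480 and 0.534). The labels do not say that same-numbered samples are paired. Except in fits of only the compared groups, the replicate block gave each number 1 effect across all 24 samples, so it is not a paired test of a single comparison. Promoters are from RefSeq on GRCh38.p14, and gene models from GENCODE on GRCh38.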

Additional observations from a re-analysis of the deposited data

Results flagged for a closer look

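There were 3 results that differed between the lines by a test of the difference itself, the interaction term in edgeR. The response of EGR1 to oxaliplatin was higher in HCT116 oxpl-R than in HCT116 by 1.06 on the log2 scale (adjusted p = 0.0201), with a decrease in HCT116 (−1.04) and 0.02 in HCT116 oxpl-R. With E1A present the same difference was 1.36 (adjusted p = 0.0126), from −1.28 in HCT116 and 0.08 in HCT116 oxpl-R. Without E1A, the response of FOSL1 was lower in HCT116 oxpl-R, by −1.02 (adjusted p = 0.0165), from 0.43 in HCT116 and −0.60 in HCT116 oxpl-R. With E1A present the FOSL1 term was −0.29 and not called (adjusted p = 0.907). The untreated levels of both genes already differed between the lines, EGR1 by −1.94 and FOSL1 by 0.96.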

How the results depend on the processing

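Over 3090 values of the 10 genes under the alternatives, 2898 kept their side of the threshold, 106 called values lost the call, 86 gained one and 0 turned direction with a call. The 2898 include 105 values that changed sign without a call in either fit. Of 47 calls of the 10 genes in the 12 comparisons, 24 were kept under all alternatives, among them JUNB and EGR1 with E1A in both lines without drug. The 2 left-out libraries and the block with only the compared groups were chosen after seeing the data.

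The number of genes called moved by over 1.5 times as follows. With DESeq2 it was 4 in place of 2 for E1A with oxaliplatin in HCT116 and for E1A in HCT116 oxpl-R, 5 in place of 2 for oxaliplatin with E1A in HCT116, and 2 in place of 1 for oxaliplatin in HCT116 oxpl-R. With RLE it was 4 in place of 2 for oxaliplatin with E1A in HCT116 and 1 in place of 2 in HCT116 oxpl-R. With filterByExpr it was 4 in place of 2 for oxaliplatin with E1A in HCT116 and 2 in place of 1 for oxaliplatin in HCT116 oxpl-R. With only the compared groups it was 3 in place of 5 for E1A with oxaliplatin in HCT116 oxpl-R, 0 in place of 1 for the interaction of oxaliplatin and line with E1A, 0 in place of 2 for oxaliplatin with E1A in HCT116 oxpl-R and 0 in place of 1 for oxaliplatin in HCT116 oxpl-R. On the second table, edgeR and limma at either pseudocount gave 1 in place of 2 for oxaliplatin with E1A in HCT116 oxpl-R and 2 in place of 1 for oxaliplatin in HCT116 oxpl-R, and limma gave 4 in place of 2 for E1A with oxaliplatin in HCT116. The replicate block gave 2 in place of 1 for oxaliplatin in HCT116 oxpl-R and, among only the compared groups, also 2 there and 0 in place of 2 for E1A with oxaliplatin in HCT116, whose same-numbered samples did not all deviate together. In the comparisons where they did, the block in the fit of all samples changed 1 more call, FOSB between the lines with oxaliplatin. The cause of these moves was not tested. Over all genes, the number called moved most in the fit of only the compared groups, from 84 to 1559 for E1A in HCT116, from 2747 to 4737 between the untreated lines, from 44 to 13 for E1A in HCT116 oxpl-R, from 17 to 4 and from 270 to 107 for E1A with oxaliplatin in HCT116 and HCT116 oxpl-R, from 1188 to 692 for oxaliplatin in HCT116 oxpl-R and from 545 to 357 there with E1A. With DESeq2 these counts were 191 for E1A in HCT116, 119 and 546 for E1A without and with oxaliplatin in HCT116 oxpl-R, 1793 and 931 for oxaliplatin without and with E1A there, 2473 in place of 1574 for oxaliplatin with E1A in HCT116, and 1321 in place of 540 for the interaction of oxaliplatin and line.

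Leaving out each library gave 4 to 5 calls between the untreated lines, 3 to 5 with E1A, 6 to 7 with oxaliplatin and 1 to 4 with both. For oxaliplatin the range was 4 to 7 in HCT116 and 0 to 2 in HCT116 oxpl-R, and with E1A 2 to 4 and 0 to 2. For E1A it was 2 to 4 in HCT116 and 2 to 3 in HCT116 oxpl-R, and with oxaliplatin 2 to 2 and 2 to 5. The interaction of oxaliplatin and line gave 0 to 3 calls, and with E1A 0 to 1, while the other 4 interactions gave 0 to 0. Without the 2 libraries that resembled each other across groups, 5 of 38 pathway genes and activators were called between the lines with both treatments and 23 with oxaliplatin in HCT116. FOSB, with 52 to 526 counts, rests on the fewest reads of the 10 genes.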
